A study of Mus musculus with 6 samples.

Results

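The enzymes of lower glycolysis, the pentose phosphate pathway, pyruvate entry and the tricarboxylic acid (TCA) cycle, with the itaconate enzyme Acod1, were described in macrophages sorted from mouse heart allografts. Of 37 listed genes, 32 were measured among 22180 genes, each on a probe set that the platform annotation pairs with exactly 1 gene symbol. For a gene with several such probe sets, the one with the highest mean over the 6 arrays was taken. Aldoa and Tkt lay only on probe sets shared with another gene and were not used, and Gpi1, Eno1 and G6pdx were not analysed here. The measured members were 11 of lower glycolysis and lactate, 2 of the pentose phosphate pathway, 6 of pyruvate entry, 12 of the TCA cycle and its citrate branch, and 1 of itaconate synthesis. The list was set by role, not by a threshold on measured values.

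Hearts of BALB/c donors had been placed in fully mismatched C57BL/6 recipients, and macrophages were sorted from the grafts by flow cytometry on day 6. The treated group was 3 samples from recipients given mTORi-HDL, an mTOR inhibitor carried in a high-density lipoprotein nanoparticle, at 5 mg/kg on days 0, 2 and 5. The control group was 3 samples from recipients left untreated, which rejected their grafts. Every recipient carried an allograft, and no sample had the lipoprotein without the inhibitor, so inhibitor and carrier cannot be told apart. The labels give no sex, age or sort markers, and do not say whether a sample was 1 recipient or a pool, so p-values measure only the spread between these samples, which may be technical. Each sample was 1 array, read as log2 expression values (RMA). Precision is limited by having 3 arrays a group.

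Lower glycolysis turns triose phosphates into pyruvate and yields ATP and NADH, and lactate dehydrogenase then regenerates NAD+ while monocarboxylate transporters export the lactate. The pentose phosphate pathway makes NADPH and ribose from glucose 6-phosphate. Pyruvate dehydrogenase feeds acetyl groups to the TCA cycle, and its kinases switch it off. Inflammatory macrophages are known for strong glycolysis and for diverting cis-aconitate to itaconate, and mTOR complex 1 is known to promote glycolytic gene expression, partly through hypoxia-inducible factor 1.

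The array mTORi-HDL 1 stood apart, so changes are given with and without it. The SD over its probe sets was 1.68, where the remaining 5 arrays had 2.04 to 2.09. Its correlations with those arrays were 0.708 to 0.741, and theirs with each other were 0.892 or more. Other cell types were also present and moved with the groups, and their part in the results below was not tested. The mean level of 9 measured T cell markers was 6.40, 8.22 and 8.32 on the treated arrays and 9.30 to 9.39 on the untreated, with 9 of 9 lower. The mean of 10 macrophage markers was 6.93, 8.11 and 8.93 against 6.93 to 7.54, with 8 of 10 higher. A low level on this log2 scale was not taken to mean that a transcript was absent. The lowest mean level of any measured marker over the 6 arrays was 2.88. For 7 genes of dividing cells the mean was 4.25, 6.07 and 5.50 against 7.35 to 7.44. For 6 fibroblast markers it was 5.60 to 5.81 against 4.41 to 4.68. For 7 markers of NK and cytotoxic cells it was 7.60, 8.81 and 8.84 against 8.91 to 9.59, and for 4 B cell markers 5.93, 7.23 and 6.72 against 7.32 to 7.65. The ranges of the treated and untreated arrays overlapped for 10 cardiomyocyte markers (4.76 to 5.13 against 4.17 to 4.88), 6 neutrophil markers (4.13 to 5.20 against 3.70 to 5.63) and 1 erythroid marker (4.19 to 4.73 against 3.82 to 4.68).

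The data show a module that was lower in the treated group mainly through 1 array, with the clearest separation at Idh3a, the catalytic subunit of the NAD-dependent isocitrate dehydrogenase. Over all 6 arrays 26 of 32 members had a negative log2 change (treated minus untreated), with a median of -0.47, where 41.8% of all genes were below 0 and their median was 0.08. Among the 5545 brightest genes, which include 20 of the members, 73.9% were below 0 with a median of -0.41, close to the members. Without mTORi-HDL 1 the count was 18 of 32 with a median of -0.05, against 53.4% and -0.03 over all genes and 52.5% and -0.03 over the brightest. After quantile normalization 19 of 32 were lower, against 45.8% of all genes, and after cyclic loess 17 of 32, against 48.7%. After median centring it was 26 of 32, against 49.3%, and after SD scaling 24 of 32, against 50.7%. In these sorted populations, fewer cells of a type and less RNA per cell cannot be told apart.

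No member had a limma adjusted p under 0.05 (Benjamini-Hochberg over 22180 genes), with all arrays or without mTORi-HDL 1, and of all genes 0% passed in either fit. At an unadjusted p under 0.05 there was 1 member, Idh3a, which was lower, against 3.07% of all genes lower and 1.57% higher. Without mTORi-HDL 1 there were 2, Idh3a lower and Acod1 higher, against 3.51% of all genes lower and 3.47% higher, or 6.97% in either direction. The 3 treated arrays lay entirely below the 3 untreated for 6 members, or 18.8% of 32, against 5.53% of all genes. They lay entirely above for 1 member, against 5.37%. Among the 5545 brightest genes, which include 20 of the members, they lay entirely below for 727 and entirely above for 157. Without mTORi-HDL 1 the groups did not overlap for 8 of 32 members, against 22.3% of all genes, which is near the background. Of these, 6 were lower, against 12.5%, and 2 higher, against 9.75%.

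**Figure D1:**
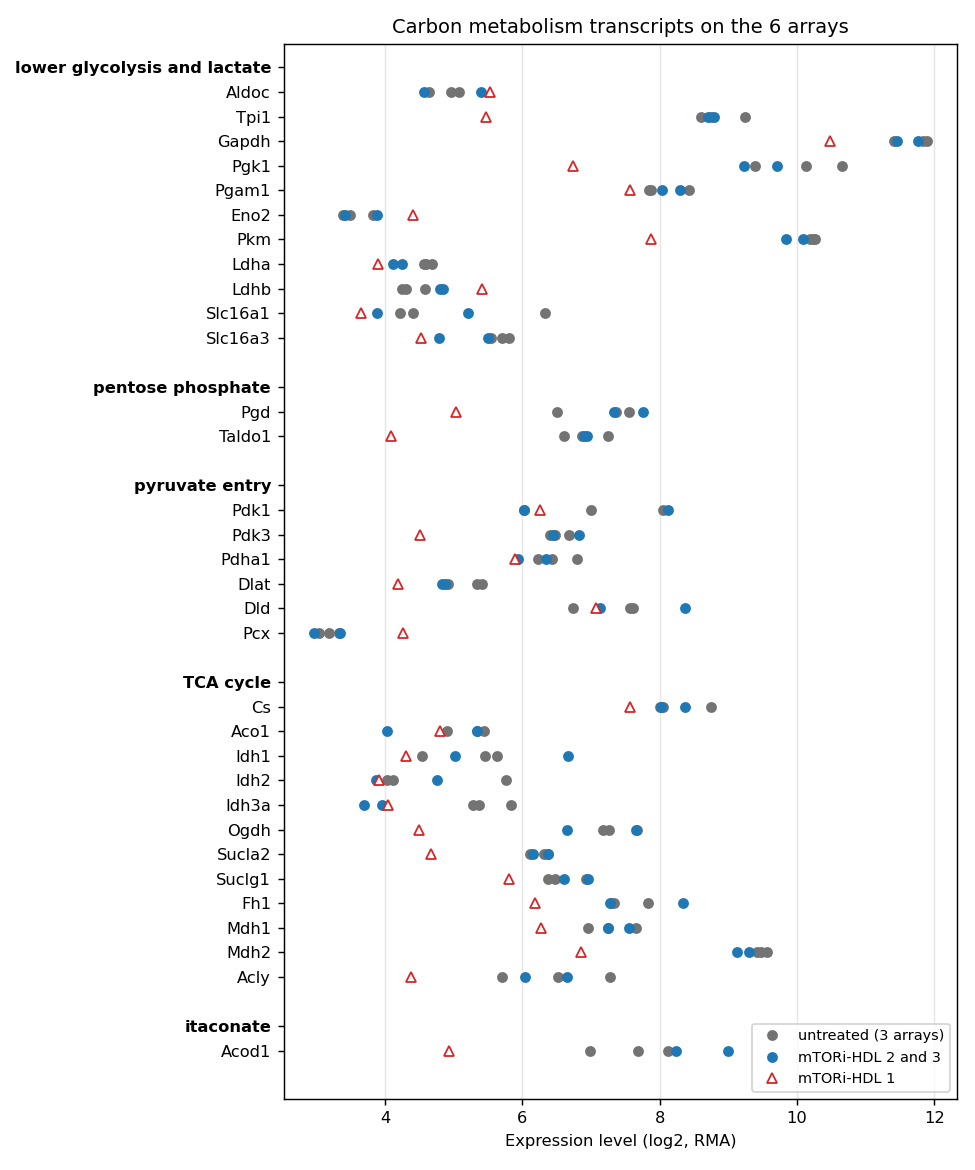
Level of each of the 32 measured members (log2, x axis) on each array, by branch; grey points are the 3 untreated arrays, blue points mTORi-HDL 2 and 3, and open red triangles mTORi-HDL 1. The triangle lies below the untreated mean for 28 members. The blue and grey points overlap for most genes and are apart for 8, most clearly at Idh3a.

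On mTORi-HDL 1 the members had a median deviation of -1.10 from the untreated mean, with 28 of 32 below it. On mTORi-HDL 2 and 3 the medians were -0.09 and -0.10, with 17 and 20 of 32 below. The deviation on mTORi-HDL 1 differed with brightness. The 20 members among the bright genes (mean level of 5.37 or more) had a median deviation of -1.80 there, and 20 of 20 were below the untreated mean. All 5545 genes that bright had a median of -1.18, with 80.7% below. The other 12 members had a median of -0.72 with 8 below, where the 16635 dimmer genes had 0.46 with 23.4% below. Neither the bright nor the dim sets were matched for level within their range. By untreated mean level, the median deviation of all genes on mTORi-HDL 1 was 0.40 at 4.0 to 4.5 and -0.66 at 5.5 to 6.0. It was -1.13 at 6.0 to 6.5 and -2.58 at 8.5 to 9.0. On mTORi-HDL 2 and 3 the bright members had medians of 0.14 and -0.10.

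**Figure D2:**
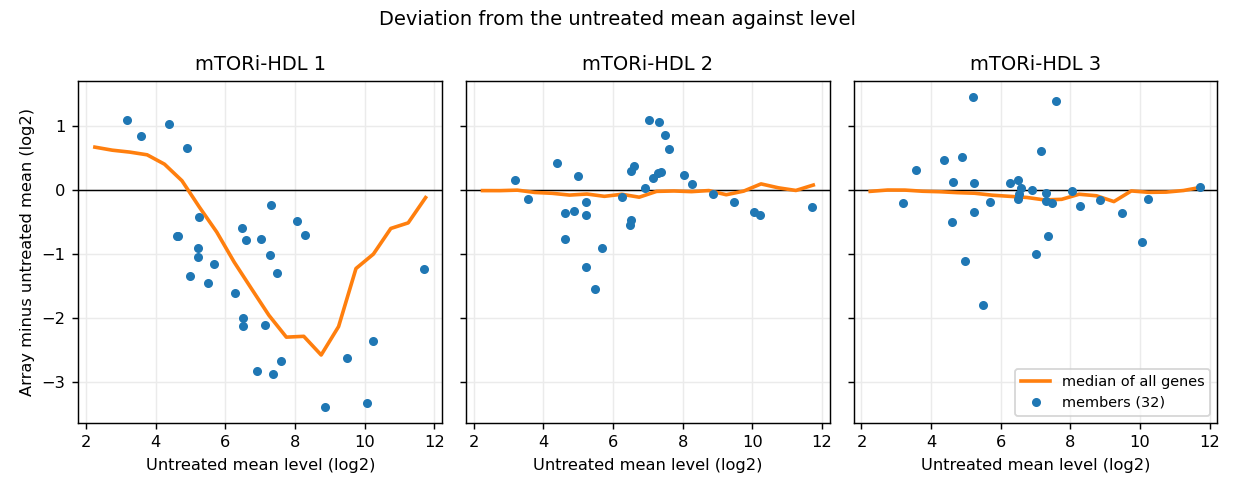
Deviation of each treated array from the untreated mean (log2, y axis) against the untreated mean level (log2, x axis); blue points are the 32 members and the orange line is the median of all genes in bins 0.5 wide that hold at least 20 genes. On mTORi-HDL 1 the line runs from 0.67 in the dimmest bin to -2.58 at levels of 8.5 to 9.0 and back to -0.12 in the brightest, with members on both sides of it; on the other 2 arrays it stays between -0.18 and 0.09.

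In lower glycolysis and lactate handling, Ldha, Slc16a3 and Pkm had all treated arrays below all untreated ones, and Ldhb had them above. The lactate dehydrogenase subunits and the lactate transporters are described first, with the promoters of both dehydrogenase genes because their transcripts lay on opposite sides of the untreated group. The sequences are the 250 bases before the annotated start, written 5′ to 3′ from the RefSeq table of build GRCm38.p6. Capitals mark the core letters of the hypoxia-response element, ACGTG or GCGTG, on either strand; the E-box CACGTG holds ACGTG on both strands, so the motifs overlap.
Ldha, chr7:46845554-46845803, + strand, the first of 2 listed windows: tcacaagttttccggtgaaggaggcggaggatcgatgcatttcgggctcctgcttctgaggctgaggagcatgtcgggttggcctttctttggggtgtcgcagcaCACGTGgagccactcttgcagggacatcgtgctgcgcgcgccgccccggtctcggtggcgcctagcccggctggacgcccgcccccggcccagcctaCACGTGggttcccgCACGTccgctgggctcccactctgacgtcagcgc
Ldhb, chr6:142507958-142508207, - strand: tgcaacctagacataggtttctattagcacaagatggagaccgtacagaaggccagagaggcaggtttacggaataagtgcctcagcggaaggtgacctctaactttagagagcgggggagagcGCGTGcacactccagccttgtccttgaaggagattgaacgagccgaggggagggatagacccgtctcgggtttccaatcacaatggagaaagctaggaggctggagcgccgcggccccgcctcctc

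In that Ldha window 5 positions matched, 2 of them for each CACGTG, and in the Ldhb window 1 did. A match was present in 11 of 14 windows of the lower glycolysis and lactate members (78.6%), and in 38.6% of all 32851 windows of that length. Base composition was not matched between these sets. Over the members of all branches a match was present in 31 of 43 windows (72.1%). For the TCA cycle members it was 13 of 17 windows, 6 of which belong to Ogdh and overlap in part. These windows cover 11 of the 12 TCA cycle members, since no window was listed for Idh3a. These matches describe letters only, and no binding was measured.

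Ldha, the subunit that favours lactate production, read 3.89, 4.25 and 4.11 on mTORi-HDL 1, 2 and 3, and 4.59, 4.68 and 4.56 on the untreated arrays. All treated values lay below all untreated values. The log2 change was -0.53 ± 0.25 (SE, limma, unadjusted p = 0.0699, adjusted p = 0.890), and -0.43 ± 0.21 without mTORi-HDL 1. Ldhb, the subunit common in oxidative tissues such as heart, read 5.40, 4.80 and 4.84 on the treated arrays and 4.59, 4.30 and 4.24 on the untreated. Here every treated value was above every untreated one. The Ldha and Ldhb probe sets were dim, with mean levels at percentiles 54.5 and 63.0 of all genes. Pkm was at 98.6 and Gapdh at 99.7. How well the 2 dim probe sets report their transcripts was not tested. The change of Ldhb was 0.64 ± 0.29 (SE, unadjusted p = 0.0578, limma adjusted p = 0.890), and 0.45 ± 0.22 without mTORi-HDL 1. Of the 10 cardiomyocyte markers 9 were higher in treated samples, and over all arrays the groups were apart for 0. Without mTORi-HDL 1, 6 were higher and 4 lower. The largest increases were those of Tnnt2 (1.17 ± 0.49, or 1.56 ± 0.43) and Tnnc1 (1.24 ± 0.52, or 1.66 ± 0.45). The 4 lower ones included Actc1 (-0.28 ± 0.40) and Myh6 (-0.14 ± 0.36). The part of these markers in the Ldhb values was not tested.

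Slc16a3, the exporter MCT4 of glycolytic cells, read 4.53, 4.78 and 5.50 in treated samples and 5.71, 5.55 and 5.80 in untreated ones. The groups did not overlap, though mTORi-HDL 3 nearly reached the lowest untreated array. Its change was -0.75 ± 0.32 (SE, limma, unadjusted p = 0.0506, adjusted p = 0.890) and -0.55 ± 0.28 without mTORi-HDL 1. Slc16a1, the related transporter MCT1, had 3.65, 5.21 and 3.87 against 4.41, 4.22 and 6.33. The high untreated 3 lay far above the rest and mTORi-HDL 2 lay above untreated 1 and 2, so its groups overlapped, with a change of -0.74 ± 0.65 (SE), or -0.45 ± 0.70 without mTORi-HDL 1.

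Among the other enzymes of lower glycolysis, Tpi1, Pgk1, Pkm and Gapdh were more than 1 log2 unit below the untreated mean on mTORi-HDL 1, whereas Aldoc and Eno2 were above it. Gapdh, the NADH-forming step, read 10.48, 11.45 and 11.76 on the treated arrays and 11.89, 11.41 and 11.84 on the untreated. Its change was -0.48 ± 0.38 (SE) and, without mTORi-HDL 1, -0.11 ± 0.25, with all 3 of its probe sets below 0 in both. After every array was scaled to the same SD the change of Gapdh was 0.11. Pkm, pyruvate kinase of muscle and leukocytes, read 7.87, 9.83 and 10.09 against 10.26, 10.24 and 10.19. Its groups did not overlap, and the gap between mTORi-HDL 3 and the lowest untreated array was small beside the low value on mTORi-HDL 1. The change of Pkm was -0.96 ± 0.57 (SE, limma adjusted p = 0.890) and -0.26 ± 0.21 without that array.

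Pgk1, the first ATP-forming enzyme, had 6.74, 9.71 and 9.23 in treated and 10.12, 10.65 and 9.39 in untreated samples. The treated arrays were low, but mTORi-HDL 2 overlapped untreated 3, and the change was -1.49 ± 0.76 (SE) or -0.58 ± 0.39 without mTORi-HDL 1. Tpi1, the triose isomerase, read 5.47 on mTORi-HDL 1, 8.79 and 8.71 on the other treated arrays, and 8.60 to 9.24 on the untreated. Its change of -1.21 ± 0.85 (SE) became -0.11 ± 0.26 without that array. Pgam1, phosphoglycerate mutase, had changes of -0.09 ± 0.31 and 0.11 ± 0.27, and its dimmer probe set had -0.10 and -0.53, the opposite sign in the second. The brain-type isoforms Aldoc and Eno2 had changes of 0.28 ± 0.34 and 0.34 ± 0.33, and 0.10 ± 0.31 and 0.09 ± 0.26 without mTORi-HDL 1.

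For the 11 members of this branch the median change was -0.53 (8 lower, 3 higher), and -0.11 without mTORi-HDL 1 (7 lower, 4 higher). Of 10 other measured glycolysis genes, 0 passed the test, 2 were lower and 8 higher, with a median of 0.13, or 0.03 without mTORi-HDL 1. The smallest unadjusted p belonged to Bsg, the chaperone of lactate transporters, at 5.95, 7.60 and 8.50 against 8.07, 8.15 and 8.24 (change -0.80 ± 0.60, or -0.10 ± 0.30 without mTORi-HDL 1), and to the testis isoform Gapdhs (0.54 ± 0.43, or 0.40 ± 0.46).

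**Figure D3:**
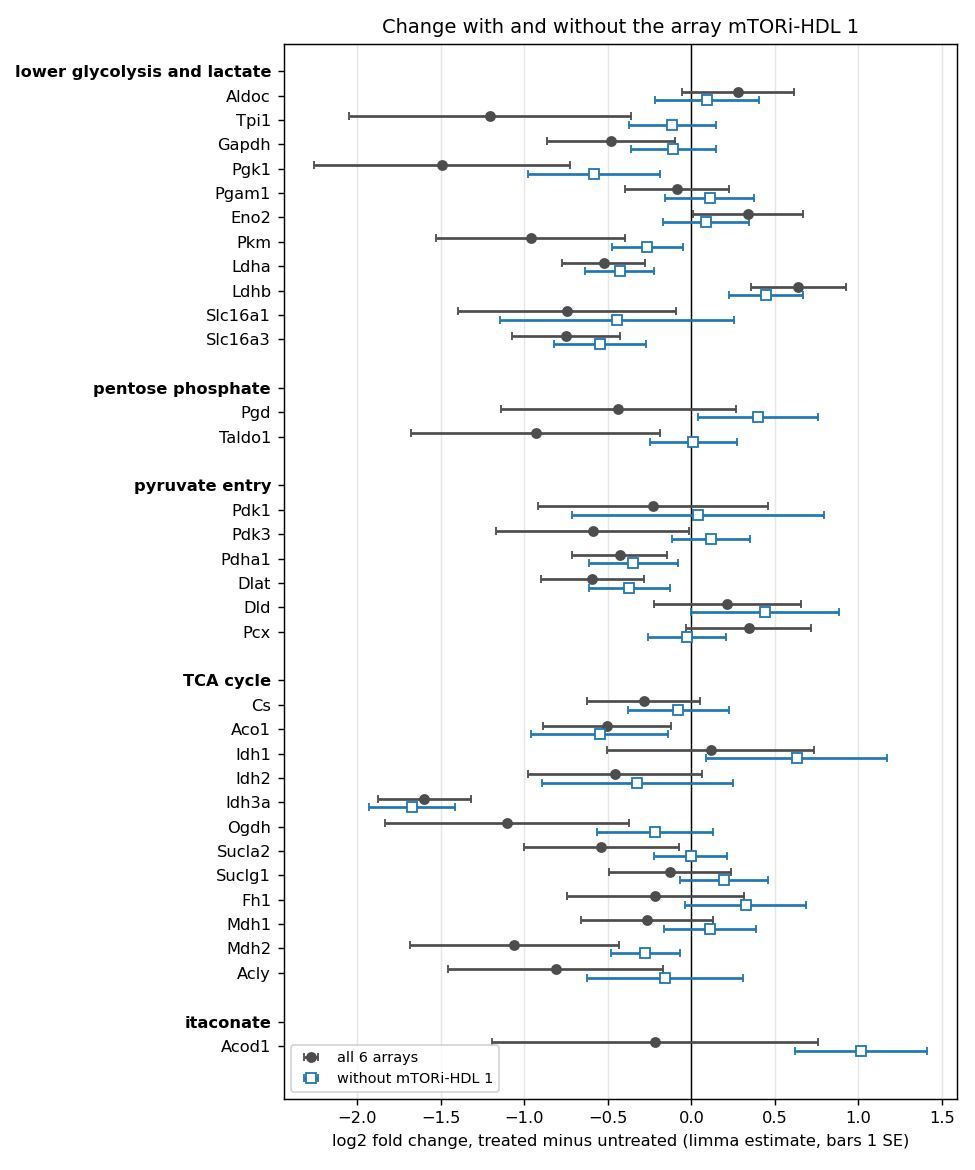
Change of each measured member in limma (log2, treated minus untreated, x axis; bars 1 SE), by branch; filled circles use all 6 arrays and open squares leave out mTORi-HDL 1. The squares lie closer to 0 than the circles for Tpi1, Pkm, Ogdh and Mdh2, stay near -1.67 for Idh3a, and move from -0.22 to 1.01 for Acod1.

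In the pentose phosphate pathway both measured members were low on mTORi-HDL 1 and close to the untreated arrays on mTORi-HDL 2 and 3. Pgd, the second NADPH-forming dehydrogenase, read 5.03, 7.33 and 7.75 in treated and 7.36, 7.56 and 6.51 in untreated samples. Taldo1, transaldolase, read 4.08, 6.94 and 6.90 against 7.25, 6.87 and 6.60. Both were lowest on mTORi-HDL 1, by more than 1 log2 unit, and the other treated values fell among or just above the untreated. The change of Pgd was -0.44 ± 0.70 (SE) and 0.40 ± 0.36 without that array, and of Taldo1 -0.93 ± 0.74 and 0.01 ± 0.26. Of 8 further measured genes of the pathway 0 passed, with 4 lower and 4 higher and a median of -0.14, or -0.19 without mTORi-HDL 1. Rpia, the ribose phosphate isomerase, read 4.66, 3.39 and 4.98 against 5.92, 4.51 and 6.87, with a change of -1.42 ± 0.66, or -1.58 ± 0.74 without mTORi-HDL 1, and overlapping groups. The lactonase Pgls had a change of -0.63 ± 0.46, or -0.15 ± 0.29 without mTORi-HDL 1, and a dimmer probe set at 0.44 and 0.25.

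At pyruvate entry, Dlat, the lipoate-bearing acetyltransferase of pyruvate dehydrogenase, separated by group. It read 4.18, 4.83 and 4.88 on the treated arrays and 5.34, 4.92 and 5.41 on the untreated. The treated values were all lower, by a narrow margin to untreated 2. Its change was -0.59 ± 0.31 (SE, limma, unadjusted p = 0.0928, adjusted p = 0.890) and -0.37 ± 0.24 without mTORi-HDL 1. Pdha1, the decarboxylase subunit, read 5.89, 5.93 and 6.34 against 6.44, 6.23 and 6.79, and mTORi-HDL 3 overlapped untreated 2. The change of Pdha1 was -0.43 ± 0.28 and, without mTORi-HDL 1, -0.35 ± 0.27, while it was 0.0037 after quantile normalization and 0.04 after cyclic loess.

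The kinases that inhibit the complex showed no separation. Pdk1 ranged from 6.02 to 8.11 on the treated and from 6.03 to 8.05 on the untreated arrays. That spread of over 2 log2 units inside each group exceeded its change of -0.23 ± 0.69 (SE), or 0.04 ± 0.75 without mTORi-HDL 1. Its dimmer probe set ranged only from 4.83 to 5.58 over all arrays. Pdk3 read 4.51 on mTORi-HDL 1, 6.82 and 6.45 on the other treated arrays and 6.40 to 6.67 on the untreated, a change of -0.59 ± 0.58, or 0.12 ± 0.23 without mTORi-HDL 1. Dld, the dehydrogenase subunit shared by several complexes, read 7.07, 8.37 and 7.13 against 7.61, 7.56 and 6.74, with a change of 0.22 ± 0.44, or 0.44 ± 0.44 without mTORi-HDL 1. Pcx, pyruvate carboxylase, read 4.26 on mTORi-HDL 1 and 2.97 to 3.33 on the other 5 arrays, a change of 0.34 ± 0.37, or -0.03 ± 0.23 without mTORi-HDL 1.

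The 6 members had a median change of -0.33, which was 0.01 without mTORi-HDL 1 and above 0 after quantile normalization and cyclic loess (0.11 and 0.10). Of 10 other measured genes 0 passed over all genes, with 5 lower and 5 higher. Lias, the synthase that makes the lipoyl cofactor, had the smallest p, at 3.84, 4.17 and 4.62 in treated and 5.04, 5.45 and 5.22 in untreated samples. Its groups did not overlap, and its change was -1.03 ± 0.30 (SE, limma, unadjusted p = 0.0103, adjusted p = 0.890) and -0.84 ± 0.25 without mTORi-HDL 1. Pdpr, a regulatory subunit of the pyruvate dehydrogenase phosphatase, had a change of -1.19 ± 0.54, or -0.87 ± 0.54 without mTORi-HDL 1, with mTORi-HDL 3 at 5.56 among the untreated values of 5.05 to 5.96. Pdhx, the lipoate-bearing binding protein of the complex, read 4.28, 4.30 and 4.31 against 4.64, 4.67 and 5.36, a change of -0.60 ± 0.29, or -0.59 ± 0.28 without mTORi-HDL 1. Lipt1, a lipoyltransferase, lay the other way, at 3.89, 3.20 and 3.92 against 3.20, 2.60 and 3.11, a change of 0.70 ± 0.32, or 0.59 ± 0.31. Pdhx and Lipt1 were named after their values were seen, and the groups were apart for both, with Lipt1 nearly touching.

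In the TCA cycle Idh3a gave the largest separation of any member relative to its error. It read 4.04, 3.95 and 3.69 on mTORi-HDL 1, 2 and 3, and 5.28, 5.83 and 5.37 on the untreated arrays. All treated arrays were more than 1 log2 unit below the lowest untreated one, and mTORi-HDL 1 did not stand apart here. The treated values were dim, near the medians of all probe sets on those arrays (4.22, 3.88 and 3.91). How well the probe set reports the transcript at such levels was not tested. Idh3a averaged 3.89 ± 0.18 over the treated arrays and 5.49 ± 0.30 over the untreated (SD, n = 3 per group). The change was -1.60 ± 0.28 (SE, 95% interval -2.25 to -0.95), with an unadjusted p of 0.000549 and a limma adjusted p of 0.468. Without mTORi-HDL 1 it was -1.67 ± 0.26 (adjusted p = 0.172). Over the alternatives the change ran from -1.71 to -1.43 and the adjusted p from 0.0851 to 0.9998, so it did not pass in any. The T cell and dividing-cell marker means were also lower on all 3 treated arrays than on the untreated, and whether they bear on Idh3a was not tested.

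The partner subunits of the same enzyme, named after their values were seen, had smaller changes in both fits. Idh3b read 7.71, 9.13 and 8.59 in treated and 9.60, 8.92 and 9.09 in untreated samples, and its groups overlapped. Idh3g read 6.63, 8.51 and 8.80 against 9.10, 8.56 and 9.10, with overlap as well. The change of Idh3b was -0.73 ± 0.41 (SE), or -0.35 ± 0.30 without mTORi-HDL 1. The change of Idh3g was -0.94 ± 0.57, or -0.27 ± 0.26. The difference between the subunits was not tested. The NADP-dependent isocitrate dehydrogenases showed wide spread within groups. Idh1, of the cytosol, read 4.30, 5.02 and 6.67 against 5.63, 5.46 and 4.54, a change of 0.12 ± 0.62, or 0.63 ± 0.54 without mTORi-HDL 1. Idh2, of mitochondria, read 3.91, 3.86 and 4.75 against 5.76, 4.11 and 4.03, a change of -0.46 ± 0.52 that was -0.32 ± 0.57 without mTORi-HDL 1 and 0.10 without untreated 1.

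Mdh2, the mitochondrial malate dehydrogenase, read 6.86, 9.30 and 9.12 on the treated arrays and 9.47, 9.42 and 9.56 on the untreated. The groups did not overlap, with mTORi-HDL 2 only slightly below the untreated values. Its change was -1.06 ± 0.62 (SE, limma adjusted p = 0.890) and -0.28 ± 0.21 without mTORi-HDL 1. Cs, citrate synthase, read 7.57, 8.36 and 8.02 against 8.05, 8.01 and 8.75, a change of -0.29 ± 0.34, or -0.08 ± 0.30 without mTORi-HDL 1, with overlap. Acly, which splits citrate for lipid synthesis in the cytosol, read 4.38, 6.04 and 6.65 against 6.52, 5.70 and 7.28. The treated arrays 2 and 3 lay inside the untreated range of Acly, and its change was -0.81 ± 0.64 or, without mTORi-HDL 1, -0.16 ± 0.47.

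Ogdh, the 2-oxoglutarate dehydrogenase, read 4.49 on mTORi-HDL 1, 7.65 and 6.65 on the other treated arrays and 7.17 to 7.67 on the untreated, a change of -1.10 ± 0.73, or -0.22 ± 0.35 without mTORi-HDL 1. The succinyl-CoA ligase subunits Sucla2 and Suclg1 had changes of -0.54 ± 0.46 and -0.13 ± 0.37, and -0.005 ± 0.22 and 0.20 ± 0.26 without mTORi-HDL 1. Fumarase, Fh1, and cytosolic malate dehydrogenase, Mdh1, had changes of -0.22 ± 0.53 and -0.27 ± 0.40, which were 0.33 ± 0.36 and 0.11 ± 0.28 without that array and above 0 after quantile normalization and cyclic loess. Aco1, the cytosolic aconitase that also binds iron-responsive RNA, had -0.51 ± 0.38 and -0.55 ± 0.41. None of these members had groups that were apart.

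The 12 members had a median change of -0.48 (11 lower), and of -0.12 without mTORi-HDL 1 (8 lower). Of 17 other measured genes of the cycle and its shuttles 0 passed, with 13 lower, 4 higher and a median of -0.46, or -0.08 without mTORi-HDL 1. Dlst, the lipoate-bearing subunit of 2-oxoglutarate dehydrogenase, read 5.20, 6.72 and 7.09 against 7.10, 7.41 and 7.55. Its groups touched without overlapping, and its change was -1.01 ± 0.49 or, without mTORi-HDL 1, -0.45 ± 0.25. Slc25a10, the dicarboxylate carrier, read 5.09, 4.33 and 3.89 against 3.76, 3.79 and 3.64, above the untreated arrays on each treated one (0.71 ± 0.35, or 0.38 ± 0.23 without mTORi-HDL 1).

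**Figure D4:**
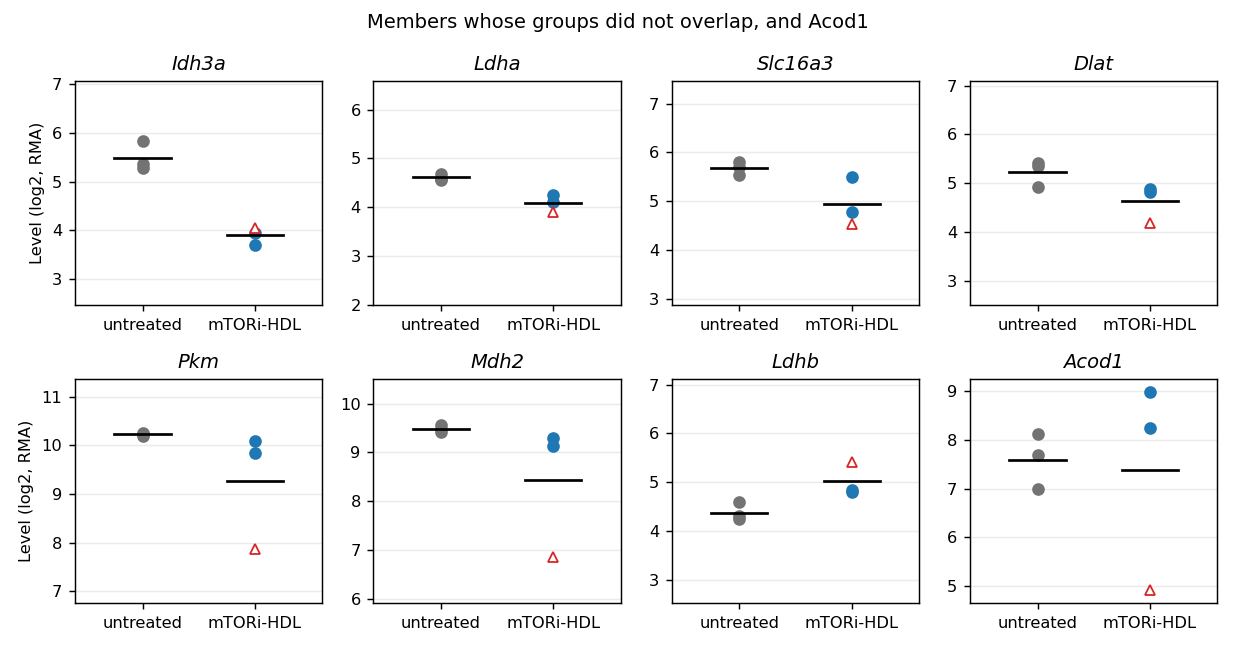
Level (log2, y axis) on each array of the 7 members whose groups did not overlap over all 6 arrays, and of Acod1; grey points are untreated, blue points mTORi-HDL 2 and 3, open red triangles mTORi-HDL 1, and bars group means of 3 arrays. Every panel spans the same number of log2 units. Idh3a is low on all 3 treated arrays alike, whereas the group means of Pkm and Mdh2 are drawn down by the triangle.

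Acod1 makes itaconate from cis-aconitate in mitochondria of activated macrophages. It read 4.92 on mTORi-HDL 1, 8.24 on mTORi-HDL 2 and 8.99 on mTORi-HDL 3, and 6.99, 8.12 and 7.68 on the untreated arrays. The treated arrays 2 and 3 were above every untreated array, and mTORi-HDL 1 was below them all. Over all arrays the change was -0.22 ± 0.98 (SE, limma adjusted p = 0.970), and without mTORi-HDL 1 it was 1.01 ± 0.40 (unadjusted p = 0.0389, limma adjusted p = 0.685). Its sign also turned after cyclic loess (0.41), with array weights (0.92) and without untreated 2 (0.05). The macrophage marker mean was likewise highest on mTORi-HDL 2 and 3 (8.11 and 8.93), and its part was not tested. Clybl and Sugct, enzymes of itaconate breakdown, had changes of 0.07 ± 0.25 and 0.28 ± 0.34, or 0.11 ± 0.22 and -0.04 ± 0.22 without mTORi-HDL 1. The promoter window of Acod1 is shown because Acod1 was a member whose change turned sign between fits, and the single match is in capitals.
Acod1, chr14:103046762-103047011, + strand: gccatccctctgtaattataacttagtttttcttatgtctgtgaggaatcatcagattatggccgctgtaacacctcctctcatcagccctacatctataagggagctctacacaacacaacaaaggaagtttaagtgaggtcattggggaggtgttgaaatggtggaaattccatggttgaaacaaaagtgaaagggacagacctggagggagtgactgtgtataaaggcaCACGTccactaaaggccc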

How the data were processed

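The authors deposited log2 expression values for 41345 probe sets on 6 arrays, and the submitters' processing notes name RMA and Affymetrix Expression Console. Of versions, build and filters, the sources used here give none. The labels state an input of 15 ng total RNA. Genes were named through the platform annotation (23521 probe sets with 1 symbol, 1814 with several, 16010 with none), and all 32 measured members had the same symbol in RefSeq (GRCm38.p6). The comparison used limma (version 3.58.1, under R 4.3.3). A linear model with a term for treatment left 4 residual degrees of freedom, and moderated two-sided p-values had Benjamini-Hochberg adjustment over 22180 genes and no dim-gene filter. The fit was run on simulated arrays with independent noise, drawn from levels and variances estimated without mTORi-HDL 1. That run does not show how the fit behaves with mTORi-HDL 1 included. The members, lists, marker genes and naming rule were chosen with earlier results of these data known. Values are given on every array for anchors of each branch, up to 3 members per branch with the smallest p, and members whose groups did not overlap, with values of other members added. Up to 2 other pathway genes per branch with the smallest p are named. Replicate numbers were not taken to pair the samples, and whether they do is not known. Alternatives were median centring, quantile normalization, cyclic loess, SD scaling, eBayes with trend and robust, array weights, a replicate block, the mean of probe sets, a filter at the median level, and each array left out.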

Additional observations from a re-analysis of the deposited data

How the results depend on the processing

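In limma no gene passed in any alternative except array weights, where 1 did (H2bc12, not a member), and no member passed in any. At an unadjusted p under 0.05 the 1 member (4.64% of all genes) became 3 after median centring (4.65%) and 2 after cyclic loess (5.77%), SD scaling (4.37%) and averaging of probe sets (4.59%), and 1 to 3 with an array left out (2.77% to 6.97%). With an array left out, the groups did not overlap for 8 to 13 of 32 members. There were 13 without mTORi-HDL 2 and 11 without mTORi-HDL 3, against 22.8% and 22.7% of all genes. Without untreated 1, 2 and 3 there were 8, 9 and 8, against 21.1%, 17.9% and 18.5%. Such counts cannot fall when an array is dropped. Median changes then ran from -0.73 to -0.053 for all members, -0.63 to -0.11 for lower glycolysis and lactate and -0.53 to 0.01 (0.0075) for pyruvate entry, each nearest or past 0 without mTORi-HDL 1. Pyruvate entry was 0.11 after quantile normalization and 0.10 after cyclic loess.

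Of 684 gene results under alternatives 636 kept their direction and 48, in 18 of 46 genes, reversed, 11 of these genes without mTORi-HDL 1. The cause was not tested. Not every setting could reverse a sign. eBayes with trend and robust, the replicate block and the median filter return the main change for every gene kept. Averaging of probe sets does so for genes with only 1. The 636 therefore include results whose direction was fixed in advance. After quantile normalization the changes were 0.30 for Pgam1, 0.21 for Pdk1, 0.0037 for Pdha1, 0.095 for Cs, 0.25 for Suclg1, 0.24 for Fh1 and 0.18 for Mdh1. After cyclic loess they were 0.52 for Pgam1, 0.16 for Pgd, 0.36 for Pdk1, 0.042 for Pdha1, 0.31 for Cs, 0.40 for Suclg1, 0.41 for Fh1, 0.35 for Mdh1 and 0.41 for Acod1. With array weights they were 0.085 for Pgam1, 0.36 for Pgd, 0.0003 for Pdk3, -0.011 for Pcx, 0.15 for Suclg1, 0.18 for Fh1, 0.051 for Mdh1 and 0.92 for Acod1. With SD scaling they were 0.11 for Gapdh and 0.19 for Pgam1. With an array left out they ranged from -1.02 to 1.01 for Acod1, -0.25 to 0.11 for Pgam1, -0.96 to 0.40 for Pgd, -1.41 to 0.012 for Taldo1, -0.89 to 0.29 for Pdk1, -1.04 to 0.12 for Pdk3, -0.21 to 0.44 for Dld, -0.027 to 0.62 for Pcx, -0.55 to 0.63 for Idh1, -0.76 to 0.10 for Idh2, -0.38 to 0.20 for Suclg1, -0.75 to 0.33 for Fh1, -0.53 to 0.11 for Mdh1, -0.036 to 0.52 for Sugct and -0.018 to 0.12 for Clybl.

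Deviations from the group means of same-numbered arrays had correlations of 0.136, 0.135 and -0.024. Those of differently numbered arrays had -0.163 to 0.126. With 3 arrays a group these values cannot decide whether the numbers pair samples, and the numbers were not taken to do so. With the replicate number as a block 0 genes passed and 1 member had an unadjusted p under 0.05, against 5.33% of all genes.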
